A study of Danio rerio with 2 samples.

Results

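Hair cells (HCs), the mechanosensory cells of the inner ear and of the lateral line, depend on transcription factors for their formation and survival. The data described here are the levels in zebrafish larvae of 8 factors grouped as HC fate factors. These are ATOH1, POU4F3, GFI1, LHX3, BARHL1, INSM1, EYA1 and prox1a. The grouping does not mean that each of them is known to be needed in HCs. Zebrafish often keep a pair of genes for 1 mammalian gene, so a row of the data set was taken as a member when its symbol was that of a factor, with or without a final a or b. The identifier ENSDARG00000020746 (gfi1aa) was taken as a further GFI1 gene. This gave 12 of the 17668 genes measured. Of the 12, GFI1B (ENSDARG00000079947) was matched only because its name is that of GFI1 with a final b. It is a separate gene, known for its role in the development of red blood cells and platelets, and counts are given with it and without it, that is over 12 and over 11 genes. The rule for members names genes and uses no measured value, although the factors were proposed with earlier results of these data known.

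The data come from 1 library of GFP(+) cells and 1 library of GFP(−) cells, sorted by flow cytometry from ppv3b:GFP transgenic zebrafish larvae at 5 dpf. The number of larvae per sort is not given in the sources used here. Both groups carry the transgene, no mutation or treatment is named for either, and the promoter drives GFP mainly but not only in HCs, so that GFP(−) cells stand for the rest of the dissociated larva. Values are quantile-normalized reads per gene, none of them below a floor of 20, and were not divided by transcript length. A level is therefore compared between the libraries for 1 gene and not between genes, and a rank orders genes by reads and not by molecules. With 1 library per population, the spread between replicates is unknown, no difference was tested, and all values below describe this pair of libraries. In such bulk samples, fewer cells of a type and less RNA per cell cannot be told apart.

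The factors act at different steps. EYA1 works as a transcriptional cofactor in the placode from which the ear forms. ATOH1, a basic helix-loop-helix factor, starts HC differentiation and is switched off again as mouse HCs mature. POU4F3 and GFI1 act after it and are needed for the survival of mouse HCs, and BARHL1 for their long-term maintenance. LHX3 is found in mouse HCs, in the pituitary and in motor neurons. INSM1 is a zinc-finger factor of newly formed neurons and endocrine cells, and in the mouse cochlea of young outer HCs. PROX1 is a homeodomain factor of lymphatic endothelium, liver, lens and neural progenitors.

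Higher values in the GFP(+) library were held by 8 of the 12, against 47.5% of all genes, and lower values by 4, against 52.4%. At least 3-fold higher values in the GFP(+) library were found for 7 of the 12, against 16.9% of all genes. At least 3-fold lower values were found for 4 of the 12, or 3 of 11 without GFI1B, against 16.4% of all genes. The log2 ratio, taken throughout as GFP(+) against GFP(−), had a median of 1.85 over the 12 genes and 1.91 over the 11, compared with −0.10 over the 17668 genes of the table. EYA1 was the only one of the 12 within 3-fold of equality. The genes at least 3-fold higher belong to ATOH1, POU4F3, GFI1, BARHL1 and LHX3, and those lower are the INSM1 pair, PROX1 and GFI1B.

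**Figure D1:**
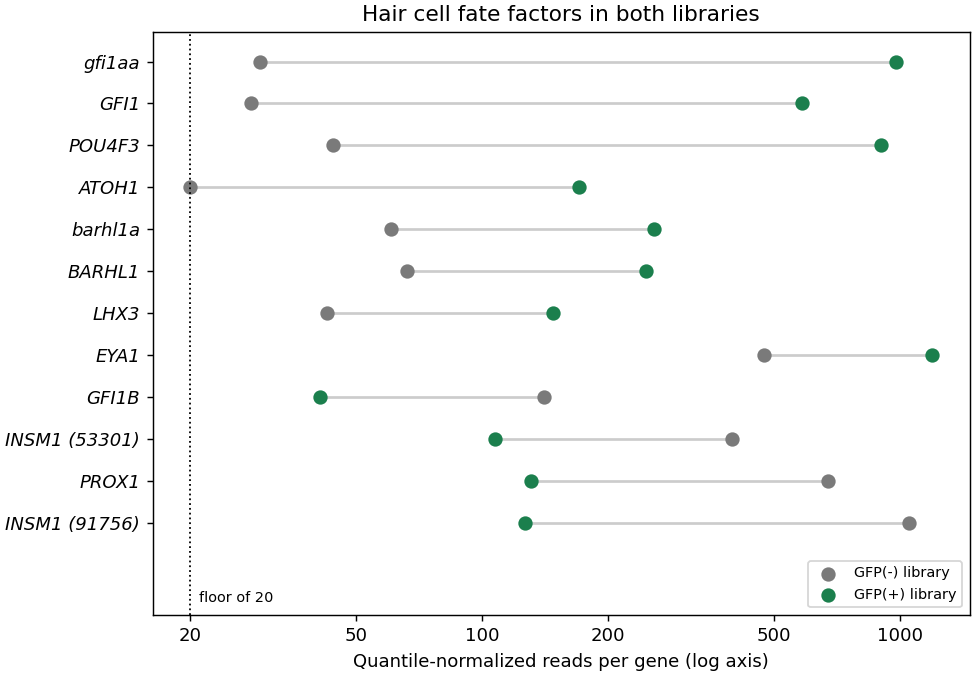
Quantile-normalized reads per gene (log axis) of the 12 genes in the GFP(−) library (grey) and the GFP(+) library (green), 1 library each, with no error bar because there is no replicate. Genes are ordered by ratio, from gfi1aa with 981.0 against 29.5 reads to INSM1 ENSDARG00000091756 with 126.5 against 1054.0, the INSM1 genes carry the last digits of their identifiers, and the dotted line is the floor of 20.

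A filter in the deposited table bears on part of the count. Of the 17668 genes, 1026 had a GFP(−) value under 30, and the lowest GFP(+) value among these was 82.0, so that each of them was at least 2.84-fold higher in the GFP(+) library. ATOH1, GFI1 and gfi1aa are 3 of these genes, so they could appear in the table only with a higher GFP(+) value. Their being higher is thus no separate finding, although the size of their ratios was free to vary upwards. Of the other 9 genes, 4 were at least 3-fold higher, against 11.9% of the 16642 genes with a GFP(−) value of 30 or more. At least 3-fold lower were 4 of the 9, against 17.4%. Without GFI1B, 4 of 8 were at least 3-fold higher and 3 at least 3-fold lower. The median log2 ratio was 1.34 over the 9 genes and 1.57 over the 8. Leaving out the genes with a GFP(−) value under 30 was chosen after the data had been seen.

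ATOH1 (ENSDARG00000055294) had 170.5 normalized reads in the GFP(+) library and stood at the floor of 20 in the GFP(−) library. It was thus at least 8.53-fold higher in the GFP(+) library. The GFP(+) value lay close to the median of 186 that both libraries share, at rank 9218 of 17668. This gene was therefore found in the GFP(+) library at a middling number of reads, and at the lowest value that the table allows in the other. Zebrafish have genes named atoh1a, atoh1b and atoh1c. The rule allows only a final a or b, so atoh1c could not be matched. ENSDARG00000055294 was the only ATOH1 row matched. Its values are thus those of 1 gene and not of all ATOH1 genes.

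POU4F3 (ENSDARG00000006206), the POU-homeodomain factor that follows ATOH1 and is itself a human deafness gene, had 902.0 normalized reads in the GFP(+) library and 44.0 in the GFP(−) library. Its value was 20.5-fold higher in the GFP(+) library, a log2 ratio of 4.36, which was above that of 97.9% of all genes. Its rank moved from 14772 in the GFP(−) library to 2842 in the GFP(+) library. With a GFP(−) value above 30, it was not bound to be higher by the filter. Of the members free of that limit, it had the highest ratio.

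The GFI1 genes encode zinc-finger repressors, which in mouse HCs keep neuronal genes silent. gfi1aa (ENSDARG00000020746) had 981.0 normalized reads in the GFP(+) library and 29.5 in the GFP(−) library, and was 33.3-fold higher. The other gene, listed as GFI1 (ENSDARG00000044457), had 584.5 and 28.0 normalized reads and was 20.9-fold higher. Both genes were thus near the floor in the GFP(−) library and well above the median in the GFP(+) library, and with their reads summed the ratio was 27.2-fold. gfi1aa moved by 14015 places in rank and GFI1 by 12512, the largest moves among the 12 genes.

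The erythroid relative GFI1B differed from this pair. It had 41.0 normalized reads in the GFP(+) library and 141.0 in the GFP(−) library, which is 3.44-fold lower in the GFP(+) library by the deposited values. A GFP(+) value of 48 or less is held by 18.8% of all genes. Of these genes, 2731 are above the floor and have no deposited symbol, and GFI1B is 1 of them. For the 2731, a higher GFP(−) value never went with a lower GFP(+) value, so the GFP(+) value is not a measurement of its own. A second gene has exactly the pair of values of GFI1B. GFP(−) values of 48 or less, also held by 18.8% of genes, were not checked in this way. They include those of ATOH1, gfi1aa, GFI1, POU4F3 and LHX3, whose folds higher are given as deposited. Folds against a GFP(−) value of 48 were not computed and would be smaller. Against a GFP(+) value of 48, GFI1B was 2.94-fold lower and no longer past 3-fold. Genes of red blood cells were lower in the same library. Of 11 erythrocyte marker genes, 7 were at least 3-fold lower in the GFP(+) library, against 16.4% of all genes. Together the 11 had 1481.0 normalized reads in the GFP(+) library and 94981.0 in the GFP(−) library. Their part in the value of GFI1B was not tested.

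BARHL1, a homeodomain factor also found in neurons, was represented by a pair of genes with like values. barhl1a (ENSDARG00000035508) had 258.5 normalized reads in the GFP(+) library and 60.5 in the GFP(−) library. The gene listed as BARHL1 (ENSDARG00000019013) had 247.5 and 66.0. They were 4.27-fold and 3.75-fold higher in the GFP(+) library, and 4.0-fold with their reads summed. Whether the small gap between these ratios exceeds the error of a library is unknown without replicates.

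LHX3 (ENSDARG00000003803), a LIM-homeodomain factor, had 148.0 normalized reads in the GFP(+) library and 42.5 in the GFP(−) library, and was 3.48-fold higher. This was the smallest of the ratios past 3-fold, and the GFP(+) value was below the median of its library, at rank 9835. LHX3 is also a pituitary factor. Of 7 pituitary marker genes matched, 2 were at least 3-fold lower in the GFP(+) library, against 16.4% of all genes. None was at least 3-fold higher, against 16.9%. For 5 of the 7 the GFP(+) value was 48 or less. The 7 genes summed to 391.0 normalized reads in the GFP(+) library and 5316.5 in the GFP(−) library. The growth hormone gene gh1 (ENSDARG00000038185) made up 4541.0 of the GFP(−) sum, and the hormone precursor gene POMC (ENSDARG00000043135) had 162.5 and 126.5 normalized reads. The part of pituitary cells in the GFP(−) value of LHX3 was not tested.

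EYA1 (ENSDARG00000014259) had 1198.0 normalized reads in the GFP(+) library and 474.5 in the GFP(−) library, and was 2.52-fold higher. Of the 8 genes that were higher, it had the smallest ratio and by far the highest GFP(−) value. It was the only gene of the 12 above the median of 186 in both libraries, at rank 2142 among GFP(+) and 4925 among GFP(−) values. Its log2 ratio of 1.34 was nevertheless above that of 80.1% of all genes.

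The INSM1 genes went the other way. ENSDARG00000091756 had 126.5 normalized reads in the GFP(+) library and 1054.0 in the GFP(−) library, and was 8.33-fold lower in the GFP(+) library. ENSDARG00000053301 had 107.5 and 396.5, and was 3.69-fold lower. With their reads summed, INSM1 was 6.2-fold lower in the GFP(+) library. The pair shared the direction, and both GFP(+) values were below the median of the library but outside the range of 48 or less.

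PROX1 (ENSDARG00000055158, prox1a) had 131.0 normalized reads in the GFP(+) library and 673.0 in the GFP(−) library, and was 5.14-fold lower in the GFP(+) library. Its rank was 10389 of 17668 among GFP(+) and 3707 among GFP(−) values. The INSM1 genes and PROX1 are active in other tissues of the larva, and markers of some such tissues were lower in the GFP(+) library as well. Of 18 neuronal marker genes, 10 were at least 3-fold lower in the GFP(+) library, against 16.4% of all genes. None was at least 3-fold higher, against 16.9%. The 18 genes had sums of 1319.0 and 8415.5 normalized reads in the GFP(+) and GFP(−) libraries. The share of 16.4% also stands beside the counts of lower genes that follow. Of 13 genes of endocrine pancreas and gut, 9 were at least 3-fold lower, with sums of 1621.0 and 8541.0. Of 13 liver genes, all were at least 3-fold lower by the deposited values and 12 with GFP(+) values of 48 or less set to 48, with deposited sums of 8299.0 and 598283.0. For 10 genes of lymphatic and blood endothelium, 8 were at least 3-fold lower, with sums of 615.0 and 3776.0. Not every marker list was lower. Of 14 skeletal muscle genes, 2 were at least 3-fold lower and 1 at least 3-fold higher, with sums of 3375.5 and 3021.5. Of 20 supporting cell markers, 6 were at least 3-fold lower and 8 at least 3-fold higher. No lens marker was matched by name. The part of these tissues in the lower values of INSM1 and PROX1 was not tested.

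**Figure D2:**
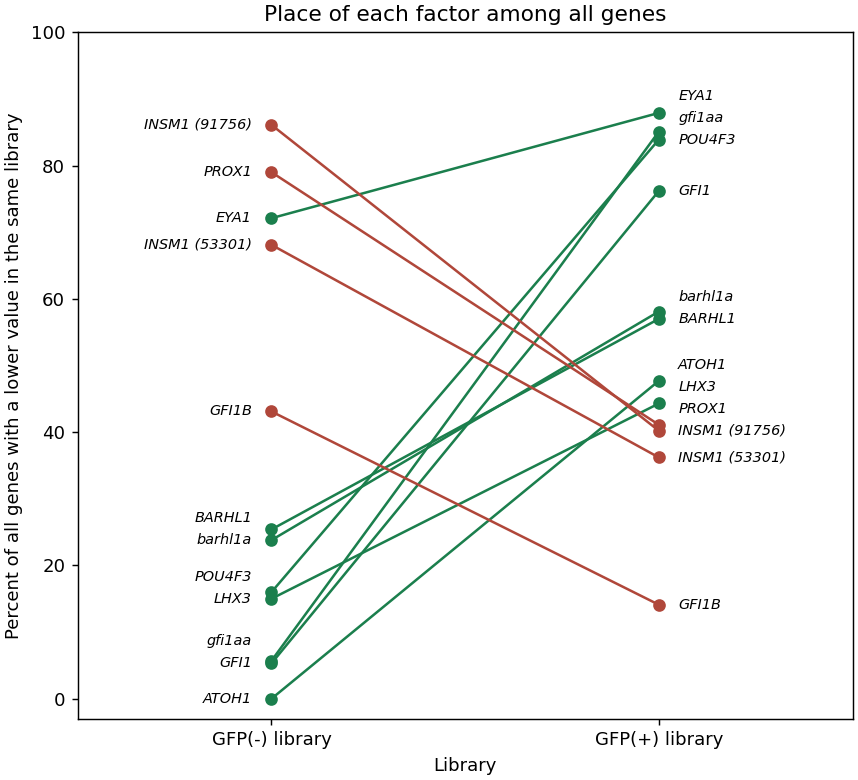
Place of each of the 12 genes among all 17668 genes, given as the percentage of genes with a lower value in the same library (vertical axis), in the GFP(−) library (left) and the GFP(+) library (right). Green lines mark genes that stood higher in the GFP(+) library and red lines genes that stood lower, and lines of both kinds end near the middle of the GFP(+) library, with ATOH1 at 47.7%, LHX3 at 44.3% and PROX1 at 41.1%.

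Because the normalization left the libraries with identical sets of values, a rank within a library carries the same information as a value. In the GFP(−) library, INSM1 ENSDARG00000091756, PROX1, EYA1 and INSM1 ENSDARG00000053301 led the 12 genes, each above at least 68.1% of all genes. In the GFP(+) library the leaders were EYA1, gfi1aa, POU4F3 and GFI1, each above at least 76.2%. EYA1 was in the leading 4 of both. Of the other genes, barhl1a and BARHL1 stood above the median of the GFP(+) library, at 58.1% and 57.0%. ATOH1, LHX3, PROX1, the INSM1 genes and GFI1B stood below it. This order is one of reads, which were not corrected for transcript length.

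The members were also ranked among genes of transcription factor families. By symbol, 447 genes were assigned to such families. At least 3-fold higher values in the GFP(+) library were held by 51 (11.4%) and at least 3-fold lower values by 118 (26.4%), or 110 with GFP(+) values of 48 or less set to 48. For the 12 members, which are among the 447, these shares were 58.3% and 33.3%. Without GFI1B they were 63.6% and 27.3%, so the share of lower members was then near that of the families. The median log2 ratio of the 447 was −0.59, below the −0.10 of all genes. By ratio, gfi1aa ranked 1 among the 447, GFI1 4, POU4F3 5 and ATOH1 19. Of these, gfi1aa, GFI1 and ATOH1 were bound by the filter to be higher. That they ranked high is thus no separate finding, although the filter did not set how high. barhl1a, BARHL1, LHX3 and EYA1 ranked 40, 46, 48 and 64. Lower in the order, INSM1 ENSDARG00000091756 ranked 422, PROX1 380, INSM1 ENSDARG00000053301 351 and GFI1B 346.

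Genes related to the members by family were examined next. Of 31 symbols of related genes, 25 further genes were matched. By the deposited values, 5 were higher in the GFP(+) library and 20 lower, with a median log2 ratio of −0.81, but 14 of the 25 had a GFP(+) value of 48 or less. With these set to 48, 16 were lower and the median was −0.44. The rest include NEUROD2, LHX8, BARX1 and a NEUROD6 gene. For these, both values were 48 or less, so no direction can be read. Of the 447 genes of transcription factor families, 305 were lower by the deposited values, a larger share than the 52.4% of all genes. At least 3-fold higher values were found for 2 of the 25, against 16.9% of all genes and 11.4% of the families, and at least 3-fold lower values for 9, or 8 with GFP(+) values set to 48, against 16.4% and 26.4%.

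Within the POU4 family, POU4F1 (ENSDARG00000005559), a factor of sensory neurons, had 835.5 normalized reads in the GFP(+) library and 126.0 in the GFP(−) library, and was 6.63-fold higher. POU4F2 (ENSDARG00000069737), a factor of retinal ganglion cells, had 69.5 and 260.0 and was 3.74-fold lower. POU4F3 thus had a larger ratio than either relative, and the family was split in direction. Of 12 retinal marker genes, 10 were at least 3-fold lower in the GFP(+) library, against 16.4% of all genes. With GFP(+) values of 48 or less set to 48, 9 were, against 14.6%. The part of retinal cells in the value of POU4F2 was not tested.

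Among the relatives of ATOH1, atoh8 (ENSDARG00000037555) had 43.5 normalized reads in the GFP(+) library and 201.5 in the GFP(−) library, and was 4.2-fold lower against a value of 48. atoh7 (ENSDARG00000069552), the retinal member, had 38.5 and 98.0, and was 2.04-fold lower against 48. NEUROD2 (ENSDARG00000016854) and a NEUROD6 gene (ENSDARG00000040008), with GFP(−) values of 37.0 and 44.0, had no direction that can be read. The largest differences of the list were those of the neuronal factors NEUROD1 (ENSDARG00000019566), 22.5-fold lower with 104.5 against 2355.0 normalized reads, and NEUROD4 (ENSDARG00000003469), 16.9-fold lower against a value of 48. NEUROD1 acts in the same neurosensory lineage of the ear, on the side of the neurons.

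LHX3 was the only one of the 8 LHX genes matched with a higher value in the GFP(+) library by the deposited values. For 4 of the other 7 the GFP(+) value was 48 or less, and LHX8 (ENSDARG00000002330), with a GFP(−) value of 37.0, then has no direction that can be read. Its closest relative LHX4 (ENSDARG00000039458) had 60.0 normalized reads in the GFP(+) library and 183.5 in the GFP(−) library, and was 3.06-fold lower. LHX9 (ENSDARG00000056979) was 3.26-fold lower and LHX2 (ENSDARG00000031222) 3.34-fold lower against a value of 48. BARX2 (ENSDARG00000041098) was at the floor in the GFP(−) library and at 212.5 in the GFP(+) library, and so at least 10.6-fold higher, as the filter required of its direction, whereas BARX1 (ENSDARG00000007407) had 31.0 and 43.5 normalized reads.

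Of the EYA genes, EYA4 (ENSDARG00000012397), a human deafness gene, had 658.0 normalized reads in the GFP(+) library and 245.5 in the GFP(−) library, and was 2.68-fold higher, next to 2.52-fold for EYA1. eya2 (ENSDARG00000018984) was 1.44-fold higher and eya3 (ENSDARG00000036100) 1.35-fold lower. INSM2 (ENSDARG00000020655) was at the floor of 20 in the GFP(+) library and at 68.0 in the GFP(−) library, and prox3 (ENSDARG00000088810), also known as prox1b, at 39.5 and 111.0. These shared the direction of INSM1 and PROX1, with ratios of 1.42-fold and 2.31-fold lower against a value of 48.

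**Figure D3:**
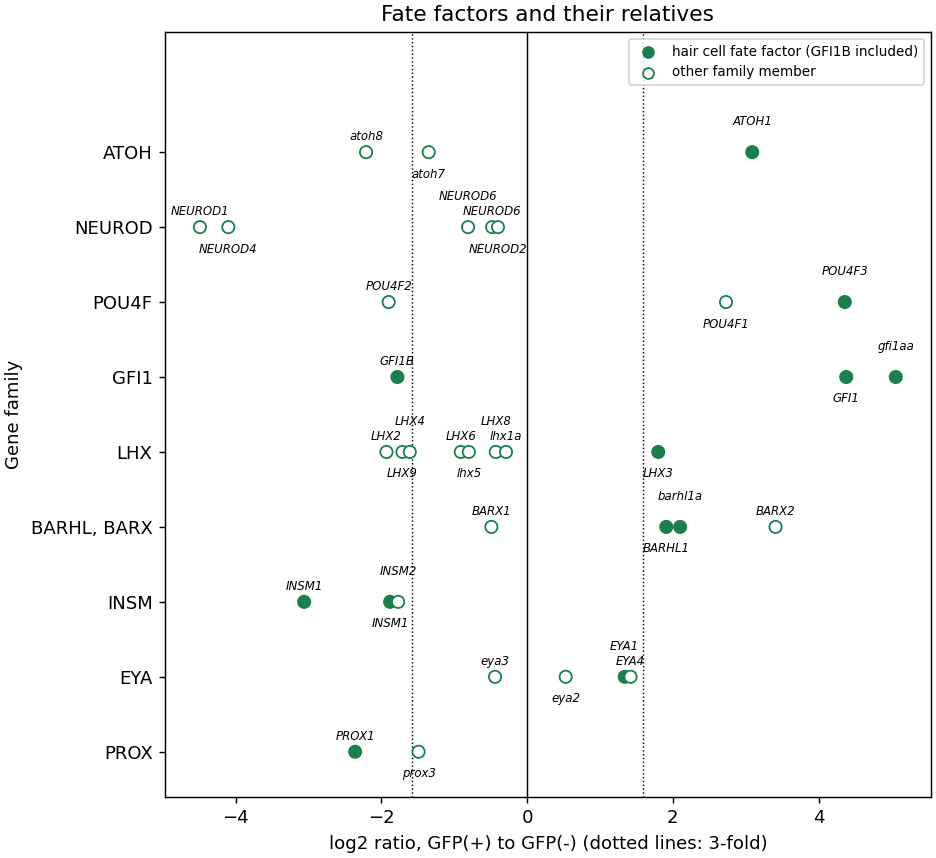
Log2 ratio, GFP(+) against GFP(−), for the members (filled) and the genes related to them by family (open), 1 row per family, with dotted lines at 3-fold. POU4F3, both GFI1 genes and ATOH1 lie at the right, the INSM1 genes and PROX1 at the left, and LHX3 is the only LHX gene above 0 by the deposited values. PTF1A and BHLHE22, which belong to no family shown, are left out, and ratios of genes with a GFP(+) value of 48 or less are drawn as deposited.

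Partners and other regulators of HC formation were examined as a second list. Of 45 symbols, 41 matched 54 genes. The GFP(+) value was at least 3-fold higher for 7 of these (13.0%), a share between the 11.4% of transcription factor families and the 16.9% of all genes. It was at least 3-fold lower for 22 (40.7%), against 26.4% and 16.4%, and the median log2 ratio was −1.33. The higher ones were led by IKZF2 (ENSDARG00000069111), a factor of maturing outer HCs in the mouse, with 461.0 normalized reads in the GFP(+) library and 27.0 in the GFP(−) library. As its GFP(−) value was under 30, it was bound to be higher, and the same holds for six2b and 1 PAX2 gene.

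Homeodomain partners of EYA proteins shared the direction of EYA1. six4a (ENSDARG00000004695) and six4b (ENSDARG00000031983) were 7.52-fold and 7.32-fold higher, with 864.5 and 809.0 normalized reads in the GFP(+) library. DLX3 (ENSDARG00000014626), which acts in placode formation and in the epidermis, was 8.0-fold higher with 1616.5 normalized reads. Markers of the superficial epidermis were also higher in this library, 11 of 15 at least 3-fold, against 16.9% of all genes. They had sums of 1637780.5 normalized reads in the GFP(+) library and 117673.0 in the other. Their part in the value of DLX3, and in those of the members, was not tested.

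Some of the E proteins, with which ATOH1 pairs to bind DNA, had lower values in the GFP(+) library. TCF3 (ENSDARG00000052383) had 337.0 normalized reads in the GFP(+) library and 2019.5 in the GFP(−) library, and was 5.99-fold lower. TCF12 (ENSDARG00000004714) had 283.0 and 2356.5, and was 8.33-fold lower. Both were nevertheless above the median of 186 in the GFP(+) library. A further gene, tcf3a (ENSDARG00000005915), was 3.87-fold lower, and TCF4 (ENSDARG00000075546), had 51.5 and 39.5 normalized reads.

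Values of a few further regulators, chosen after they were seen, are as follows. SOX2 (ENSDARG00000070913), a factor of the prosensory field and of supporting cells, had 259.0 normalized reads in the GFP(+) library and 1058.5 in the GFP(−) library, and was 4.09-fold lower. ID3 (ENSDARG00000054823), an inhibitor of basic helix-loop-helix proteins, was 4.21-fold lower, whereas ID1 (ENSDARG00000040764), id2b (ENSDARG00000029544) and ID2 (ENSDARG00000055283) were 2.81-fold, 2.8-fold and 1.6-fold lower. The Notch effector HEY1 (ENSDARG00000070538) was 6.08-fold lower and its relative HEY2 (ENSDARG00000013441) 1.78-fold lower against a value of 48. GATA3 (ENSDARG00000016526), needed for HC formation in the mouse, was 2.24-fold higher with 1597.0 against 712.0 normalized reads. SOX2, the ID genes and the E proteins are used in many tissues, so that a lower value in the GFP(+) library is a comparison with the whole larva and not with supporting cells.

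**Figure D4:**
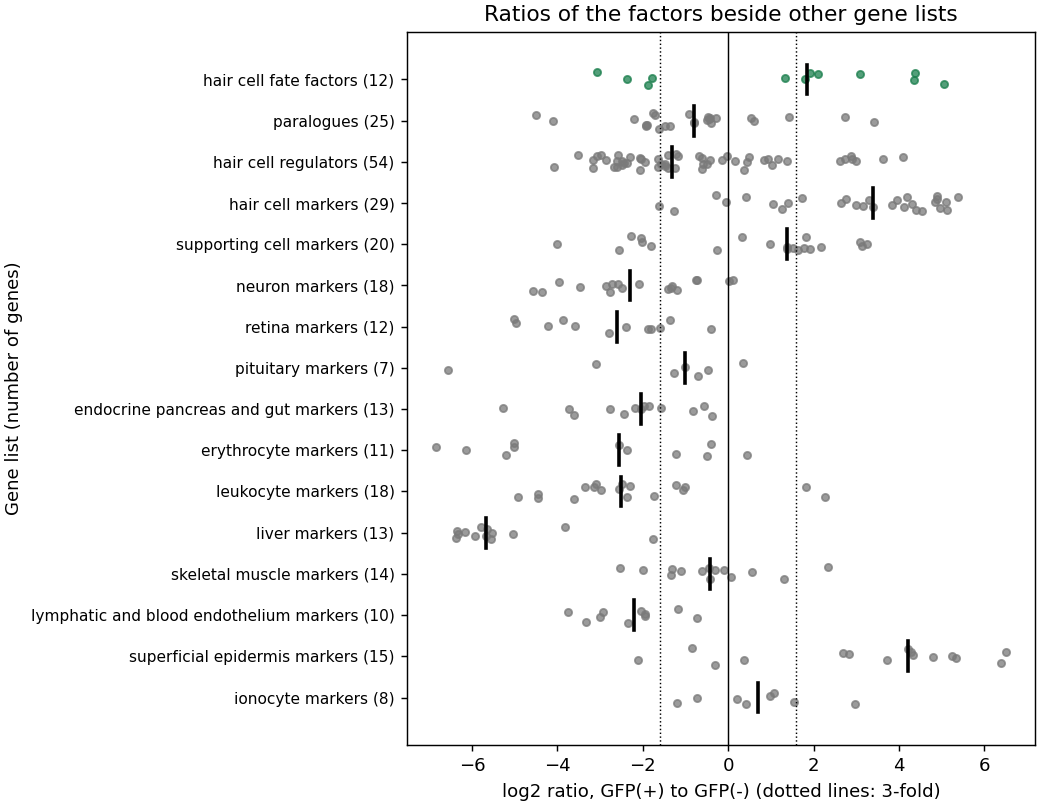
Log2 ratio, GFP(+) against GFP(−), for each gene (points, spread vertically for legibility) of the 12 members, of their relatives, of other regulators of HC formation and of cell type marker lists, with the median of each list as a black bar and dotted lines at 3-fold. The members fall into a group above 0 and a group below 0 with a median of 1.85, HC markers have a median of 3.40, superficial epidermis markers one of 4.21, and neuronal, retinal, liver and erythrocyte markers lie mostly below 0.

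The labelled identity of the GFP(+) cells was compared with 29 HC marker genes. They were chosen with earlier results of these data known and are no independent check of identity. At least 3-fold higher values in the GFP(+) library were held by 21 of them, against 16.9% of all genes. At least 3-fold lower values were held by 1, against 16.4%. Lower by any amount were 4 of the 29, namely calm1a, MYO7A, anxa5b and cabp2a, with 69.0 and 84.5 normalized reads for MYO7A. For 6 of the 29 the GFP(−) value was under 30, so that they had to be higher. Of the other 23, 15 were at least 3-fold higher, against 11.9% of all genes with a GFP(−) value of 30 or more. The median log2 ratio of the 23 was 3.29. The median log2 ratio of all 29 was 3.40, and they summed to 51181.5 normalized reads in the GFP(+) library and 8221.5 in the other. OTOF (ENSDARG00000020581), a synaptic protein of HCs, had 9574.0 and 334.5 normalized reads. Markers of the superficial epidermis had a higher median log2 ratio, 4.21 over 15 genes. They held 8.6% of the GFP(+) signal against 0.269% for the HC markers, in reads not corrected for transcript length. The gene krt4 (ENSDARG00000017624) alone had 978726.0 of their 1637780.5 normalized reads in the GFP(+) library. That library is thus not shown by its markers to hold HCs alone. Of 20 supporting cell markers, 8 were at least 3-fold higher and 6 at least 3-fold lower, against 16.9% and 16.4% of all genes. The ratios of POU4F3 and the GFI1 genes, with log2 values from 4.36 to 5.06, lay above the median of the HC markers, those of ATOH1, barhl1a, BARHL1, LHX3 and EYA1 below it. The filter required the GFI1 genes and ATOH1 to be higher, so among these members it left POU4F3, the BARHL1 genes, LHX3 and EYA1 free in direction.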

How the data were processed

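RNA-seq of sorted GFP(+) and GFP(−) cells was analysed, with 1 library each. According to the paper, reads were aligned to Zv9 with TopHat and counted per Ensembl gene with HTSeq, and versions are not given in the sources used here. The paper states that the counts were then quantile-normalized and that a floor of 20 was set after this. The deposited values are therefore a normalized signal, in reads and not counts. They sum to 19035170.5 in both libraries, so depth and its precision are unknown. A minimum of 40 reads is named in the title of the table, which lists the floor before the normalization and not after it. Which order was used was not tested.

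Names came from a table of identifiers, which named all 12 members, and from deposited symbols, which named 1 of the 11 members other than GFI1B. The ratio, its log2 and ranks were computed without a pseudocount. A fold against the floor is a lower bound. No test was made, and 3-fold is the size the study used for elevated genes in its mouse RNA-seq. Members and lists were chosen with earlier results of these data known. Named genes are all members, chosen genes of the lists of relatives and regulators, mostly past 3-fold, and a few markers. Those within 3-fold, with gh1, POMC, OTOF and the order of examples, were picked after their values were seen. A regulator and a retinal marker of these lists are not reported here. Transcription factor families were assigned by symbol starts. The counting was tested on simulated data. Alternatives were pseudocounts, a minimum mean, other names, summed gene pairs and other limits. Python 3.11.15, numpy 2.4.6, pandas 2.3.3 and matplotlib 3.10.9 were used. Coordinates and sequences were not used here.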

Additional observations from a re-analysis of the deposited data

How the results depend on the processing

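With 1 library per population, no result has a replicate check, and no replicate could be left out. No paired analysis was possible because each group has 1 library and no test was made. Relative to 7 genes at least 3-fold higher, 4 at least 3-fold lower and a median log2 ratio of 1.85 over 12 genes, a pseudocount of 100 gave 3, 2 and 1.11. Deposited symbols alone, with gfi1aa still taken by its identifier, left 2 genes, LHX3 and gfi1aa, with 2, 0 and 3.43. When members with a GFP(−) value under 30 were left out (chosen after seeing the data), 4 were at least 3-fold higher. With gene pairs summed and GFI1B left out, 5 of 8 factors were at least 3-fold higher and 2 at least 3-fold lower. No ratio of a member changed its sign. A pseudocount of 100 moved 11 of the 12 ratios by over 1.5 times and a pseudocount of 20 moved 3, those of gfi1aa, GFI1 and ATOH1, whose GFP(−) values are lowest. ATOH1 had a log2 ratio of 2.25 with a pseudocount of 20 and 1.17 with 100, and gfi1aa 4.34 and 3.06. Centring on the median of all genes moved no member by over 1.5 times. How far few reads limit the low GFP(−) values cannot be read from normalized values.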
